A study of Mus musculus with 42 samples.

Results

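Casp4, Ccr1, Il13ra1 and Stfa1 are 4 of the 15613 genes counted in the whole blood of 42 mice, and they were chosen by their counts, which were higher after transcranial direct current stimulation (tDCS) than after sham stimulation in 3xTg-AD mice. The choice also named their correlation with the neutrophil genes S100a8 and S100a9. That contrast, at either site, and those correlations are therefore described for the 4 genes without a p-value. Tests of the 4 genes are given only for other comparisons. Where other genes are tested in that contrast, the tests use the same mice that chose the 4 genes and are no independent evidence for them. The values are read counts scaled to a common library size (CPM), with library sizes adjusted by the trimmed mean of M-values (TMM), or log2 CPM. All 4 genes passed the submitters' filter on low counts and entered every fit.

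The 26 3xTg-AD mice are males that carry mutated human transgenes, APP and MAPT among them, and model Alzheimer's disease, and the 16 mice of the C57BL/6 strain, whose sex the labels do not give, are wild type. At 6 months of age (6 mo.), 3xTg-AD mice with an epicranial electrode over the hippocampus (HP) received tDCS (8 mice) or sham (5 mice), and those with the electrode over the prefrontal cortex (PFC) received tDCS (6 mice) or sham (4 mice). The 6 mo. C57BL/6 mice received HP tDCS (3 mice), PFC tDCS (4 mice) or HP sham (6 mice), and 3 mice of each strain were taken at 3 months (3 mo.) as HP sham. The current was anodal, PFC mice received more and shorter sessions over a longer time than HP mice, and blood was drawn shortly after stimulation, so site and schedule cannot be told apart. All mice, sham mice included, had the electrode implanted under anaesthesia and were handled alike, with no current in sham mice. No PFC sham mouse of the C57BL/6 strain was analysed here, so tDCS in that strain was compared with sham in HP mice. The 3xTg-AD line has a mixed C57BL/6 and 129 background, so transgenes and background cannot be told apart in a comparison of strains. A mouse is the replicate throughout, and the labels do not say which mice shared a litter.

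Casp4 encodes caspase-11, the protease that senses intracellular lipopolysaccharide and cleaves gasdermin D in the noncanonical inflammasome. Ccr1 is a receptor for the inflammatory CC chemokines such as CCL3, CCL5, CCL6 and CCL9 on neutrophils and monocytes. Il13ra1 forms the type II receptor for IL-13 and IL-4 together with Il4ra and signals through JAK kinases and STAT6. Stfa1 encodes a stefin A, an intracellular inhibitor of cysteine cathepsins that is expressed in myeloid cells, and lies in a cluster of similar genes. S100a8 and S100a9 encode calprotectin, an abundant protein of the neutrophil cytosol.

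In GRCm38, Casp4 (ENSMUSG00000033538) is on the forward strand at chr9:5308828-5336783 and Ccr1 (ENSMUSG00000025804) on the reverse strand at chr9:123962124-123968692. Il13ra1 (ENSMUSG00000017057) is on the forward strand at chrX:36112110-36171259, and Stfa1 (ENSMUSG00000071562) on the forward strand at chr16:36276951-36285373. No other annotated gene overlaps any of the 4. The 250 bases before the RefSeq start on GRCm38.p6 are shown for Ccr1 and Il13ra1, 5′ to 3′ on the gene's strand. Another annotated transcript starts inside the windows of Casp4, chr9:5308599-5308848, and Stfa1, chr16:36276898-36277147, so for Casp4 the 229 bases before that start are shown and for Stfa1 only 30 bases around a match. Capitals mark matches on either strand to GAGGAA (the PU.1 core), TTGCNNAA (C/EBP), TTCNNNGAA (STAT) or GAAANNGAA (the interferon-stimulated response element), sites of factors of myeloid and cytokine-driven transcription.
Casp4, chr9:5308599-5308827, forward strand: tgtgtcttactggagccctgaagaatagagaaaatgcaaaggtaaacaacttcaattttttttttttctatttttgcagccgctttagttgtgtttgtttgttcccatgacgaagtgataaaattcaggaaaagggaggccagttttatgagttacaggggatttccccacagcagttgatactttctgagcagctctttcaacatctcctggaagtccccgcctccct
Ccr1, chr9:123968693-123968942, reverse strand: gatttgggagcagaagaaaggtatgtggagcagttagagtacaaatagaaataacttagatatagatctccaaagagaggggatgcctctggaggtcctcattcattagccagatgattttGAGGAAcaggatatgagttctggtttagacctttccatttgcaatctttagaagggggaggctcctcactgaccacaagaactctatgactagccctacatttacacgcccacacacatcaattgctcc
Il13ra1, chrX:36111858-36112107, forward strand: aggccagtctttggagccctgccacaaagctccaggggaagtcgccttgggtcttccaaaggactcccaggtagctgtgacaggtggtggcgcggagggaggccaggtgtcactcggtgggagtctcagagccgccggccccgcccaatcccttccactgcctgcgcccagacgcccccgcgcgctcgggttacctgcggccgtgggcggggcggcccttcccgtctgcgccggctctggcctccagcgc
Stfa1, chr16:36277028-36277057, forward strand: tgcagtaagacTTGCCTAAggccacactca

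GAGGAA was found once in the Ccr1 promoter, 129 bases before the RefSeq start, and once in the Stfa1 window on the reverse strand, from 178 bases before that gene's RefSeq start. TTGCNNAA was found once in the Stfa1 window, 109 bases before the RefSeq start. The 30 Stfa1 bases shown lie inside the annotated gene, downstream of its start. No match lay in the windows of Casp4 and Il13ra1, and none of the 4 windows held TTCNNNGAA or GAAANNGAA, which says only that these letters are not in these windows. Of all 32851 RefSeq promoters of this length, 23.3% held GAGGAA, 9.56% TTGCNNAA, 7.02% TTCNNNGAA and 7.13% GAAANNGAA, so the matches are a description of the windows only. The Il13ra1 window had 70.8% G and C, against 41.6%, 43.6% and 49.6% in those of Casp4, Ccr1 and Stfa1. Casp4 has 2 RefSeq starts, and the window of the more upstream one was searched.

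Libraries held 13450000 to 37750000 counted reads, with a median of 23880000, and 10.8% to 53.6% of the reads were on haemoglobin genes in spite of globin depletion. Casp4 was counted with 16 to 314 reads per mouse, Ccr1 with 11 to 894, Il13ra1 with 25 to 532 and Stfa1 with 0 to 301. Stfa1 had no read in 1 PFC sham 3xTg-AD mouse, where 3 reads, the limit that a count of 0 allows, would be 0.244 CPM. The defining genes of neutrophils, monocytes, B, T and NK cells and platelets were detected, each at 0 in at most 2 mice, as whole blood should hold them. Of the eosinophil genes Epx was at 0 in 26 mice and Ear6 in 6. Of the basophil genes Fcer1a was at 0 in 5 mice, Prss34 in 4 and Cpa3 in 3. The values of these lists below rest partly on such genes. In such bulk samples, more cells of a type and more RNA per cell cannot be told apart.

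Casp4 was higher after tDCS in 3xTg-AD mice at both sites, from 2.0 to 4.85 CPM in the HP sham mice to a median of 5.43 CPM after HP tDCS. The 5 HP sham mice had 2.89, 4.85, 2.0, 2.67 and 2.37 CPM, and the 8 HP tDCS mice ran from 4.42 to 8.65 CPM. The 4 PFC sham mice had 2.70, 2.45, 3.61 and 1.79 CPM, and the 6 PFC tDCS mice ran from 3.59 to 17.5 CPM with a median of 6.06. Of the HP tDCS mice, 5 of 8 lay above every HP sham mouse, and of the PFC tDCS mice 5 of 6 above every PFC sham mouse, so at each site the groups overlapped in few mice. The log2 fold change was 1.34 ± 0.28 (SE) over both sites, 1.04 ± 0.28 in HP and 1.69 ± 0.49 in PFC mice. PFC tDCS replicates 2 and 4, at 14.5 and 17.5 CPM, stood above all other mice, and without the higher one the PFC value was 1.35.

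For Ccr1 the tDCS mice spread upward from the level of the sham mice. HP sham mice had 2.99, 6.45, 7.35, 7.44 and 9.84 CPM, and HP tDCS mice 6.19 to 31.5 CPM with a median of 13.9. PFC sham mice had 4.70, 8.85, 8.51 and 3.82 CPM, and PFC tDCS mice 5.26 to 29.2 CPM with a median of 14.9. In HP mice 6 of 8, and in PFC mice 4 of 6, tDCS mice lay above every sham mouse of their site, and 5 of all 14 tDCS mice passed 20 CPM. The log2 fold change was 1.33 ± 0.31 over both sites, 1.30 ± 0.38 in HP and 1.31 ± 0.47 in PFC mice.

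Il13ra1 had the smallest log2 difference of the 4 genes over both sites. HP sham mice had 4.22, 5.89, 3.05, 4.58 and 7.11 CPM, and HP tDCS mice 6.23 to 20.2 CPM with a median of 8.35. PFC sham mice had 4.08, 6.73, 7.49 and 3.33 CPM, and PFC tDCS mice 4.92 to 22.7 CPM with a median of 9.47. Of the tDCS mice, 7 of 8 in HP and 5 of 6 in PFC were above every sham mouse of their site. The log2 fold change was 1.12 ± 0.26 over both sites, 1.08 ± 0.32 in HP and 1.10 ± 0.42 in PFC mice.

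Stfa1 had the largest log2 difference over both sites. HP sham mice had 1.48, 0.471, 1.25, 2.92 and 3.87 CPM, and HP tDCS mice 3.79 to 7.84 CPM with a median of 5.01. PFC sham mice had 0.188, 0.892, 1.63 and 0 CPM, and PFC tDCS mice 3.44 to 15.4 CPM with a median of 5.01. Every PFC tDCS mouse lay above every PFC sham mouse, as 0.517% of all genes did in that comparison, and 7 of 8 HP tDCS mice above every HP sham mouse. The log2 fold change was 2.20 ± 0.46 over both sites, 1.47 ± 0.40 in HP and 3.35 ± 0.75 in PFC mice.

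**Figure D1:**
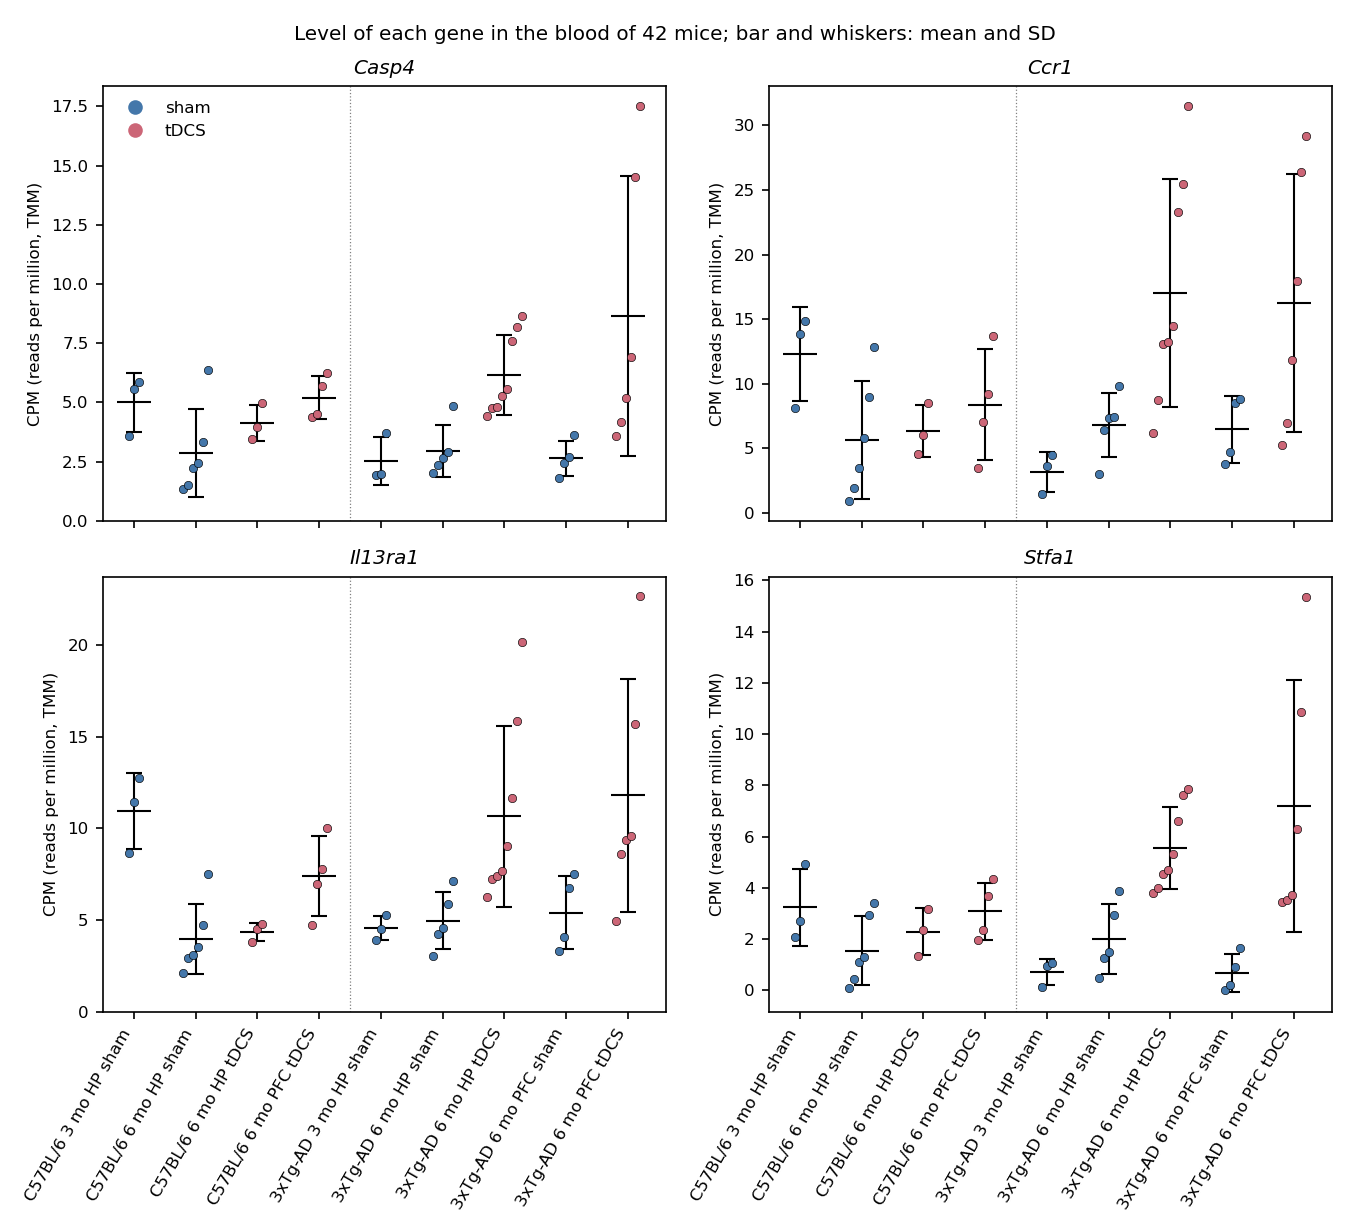
CPM of Casp4, Ccr1, Il13ra1 and Stfa1 (vertical axes) in each of 42 mice, by strain, age in months (mo), electrode site (HP or PFC) and stimulation (colour), with the mean and SD of each of the 9 groups as bar and whiskers. The tDCS groups of 3xTg-AD mice hold the highest mice for each gene, and in the PFC panel positions of Stfa1 the 6 tDCS mice, at 3.44 to 15.4 CPM, are all above the 4 sham mice, at 0 to 1.63 CPM.

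In this contrast edgeR called 0 of 15607 genes at an adjusted p under 0.05, that is 0% of them. At an unadjusted p under 0.05 it held 1224 genes, 7.84% of those tested, and DESeq2 called 37 of 9535, or 0.388%. Whether any of the 4 genes was among those that DESeq2 called is not given, since this contrast chose them. In HP mice alone edgeR called 0 genes (1392 at an unadjusted p under 0.05) and DESeq2 0.542%, and in PFC mice alone edgeR called 0 (1042 unadjusted) and DESeq2 0.0732%. By p-value, Casp4 was ranked 1, Stfa1 3, Il13ra1 16 and Ccr1 17 among the genes tested, which is a description, since this contrast chose the genes. Each fold change kept its sign when any single mouse was left out, between 1.18 and 1.495 for Casp4, 1.22 and 1.41 for Ccr1, 0.98 and 1.20 for Il13ra1, and 1.997 and 2.49 for Stfa1. These ranges too only describe the contrast that chose the genes and are no test of it.

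The difference between tDCS and sham in the 23 6 mo. 3xTg-AD mice was also set against site, as the interaction of site with stimulation. It is made from the contrasts that chose the genes and is given without a test. For Stfa1 the difference between tDCS and sham was larger over the PFC by 1.86 ± 0.81 on the log2 scale, and for Casp4 by 0.64 ± 0.53. For Ccr1 and Il13ra1 the interaction was -0.01 ± 0.62 and 0.01 ± 0.53. Over all genes, edgeR called 0 of 15607 (0%), 1056 had an unadjusted p under 0.05, and DESeq2 called 1 gene (0.00643%). That gene was Stfa2, a paralog of Stfa1 (DESeq2 adjusted p = 0.0364), named here after its values were seen. The Stfa1 value rests on PFC sham mice with 0 to 24 reads.

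Between the sites themselves, over stimulation, 1403 of 15607 genes (8.99%) were called in 3xTg-AD mice and none of the 4 genes was among them, nor among the 13.3% that DESeq2 called. PFC minus HP log2 differences were 0.25 ± 0.26 for Casp4, -0.06 ± 0.29 for Ccr1, 0.15 ± 0.25 for Il13ra1 and -0.27 ± 0.42 for Stfa1, with adjusted p of 0.588 or more in edgeR's test. Among the 95% intervals of these differences, the lowest bound was -1.14, for Stfa1, and the highest 0.79, for Casp4.

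In C57BL/6 mice, which played no part in the choice of the genes, none of the 4 genes passed the test for tDCS. The 4 PFC tDCS mice also entered that fit, with site as a term. The 6 HP sham mice had 1.34 to 6.38 CPM of Casp4 with a median of 2.33, and the 3 HP tDCS mice 3.48, 3.96 and 4.98 CPM. For Ccr1, HP sham mice ran from 0.923 to 12.8 CPM with a median of 4.64, and HP tDCS mice had 8.48, 6.01 and 4.56 CPM. The tDCS mice lay inside the range of the sham mice for both genes, and the sham mice differed among themselves more than the groups did. Il13ra1 was at 2.10 to 7.48 CPM with a median of 3.30 in HP sham and at 4.48, 3.78 and 4.75 CPM in HP tDCS mice. Stfa1 was at 0.0839 to 3.39 CPM with a median of 1.21 in HP sham and at 2.36, 1.33 and 3.16 CPM in HP tDCS mice. One sham mouse, replicate 4, was lowest of its group for all 4 genes, and replicate 2 highest for all 4.

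The log2 fold changes in C57BL/6 mice were 0.54 ± 0.39 for Casp4, 0.17 ± 0.58 for Ccr1, 0.14 ± 0.35 for Il13ra1 and 0.55 ± 0.62 for Stfa1, with adjusted p of 0.992 or more in edgeR's test. Their intervals were from -0.34 to 1.41, -1.11 to 1.45, -0.64 to 0.91 and -0.83 to 1.94. Each interval held 0. edgeR called 0 of 15607 genes (0%) in this comparison, with 650 at an unadjusted p under 0.05 (4.16%), and DESeq2 called 0. Exact permutation tests of HP tDCS (3 mice) against HP sham (6 mice), two-sided, gave p = 0.214 for Casp4, 0.548 for Ccr1, 0.524 for Il13ra1 and 0.381 for Stfa1, where the smallest p this design allows is 0.0238. The difference of the 2 strains' HP fold changes, which holds the contrast that chose the genes, was 0.52 ± 0.51, 1.15 ± 0.74, 0.96 ± 0.50 and 0.92 ± 0.81 for the 4 genes in that order, and is given without a test. Without C57BL/6 HP sham replicate 2, the highest mouse of its group, it was 0.084, 0.689, 0.649 and 0.492.

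Among the C57BL/6 tDCS mice, PFC mice had 5.68, 6.22, 4.53 and 4.38 CPM of Casp4, 13.7, 9.23, 3.52 and 7.07 CPM of Ccr1, 10.01, 6.98, 7.81 and 4.75 CPM of Il13ra1, and 4.35, 3.68, 1.98 and 2.36 CPM of Stfa1. They overlapped the HP mice for each gene, though for Il13ra1 only at 4.75 CPM. The fitted PFC minus HP differences were 0.26 ± 0.43, 0.34 ± 0.63, 0.71 ± 0.38 and 0.37 ± 0.68 on the log2 scale, with adjusted p of 0.415 or more in edgeR's test while 359 genes (2.3%) were called, and DESeq2 called 4.31%, none of the 4 genes among them. Exact permutation tests of 4 against 3 mice gave p = 0.171, 0.686, 0.114 and 0.4, where 0.0571 is the smallest possible. Adjusted over these and the tests of tDCS above, 8 in all, the exact tests gave 0.571 or more.

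**Figure D2:**
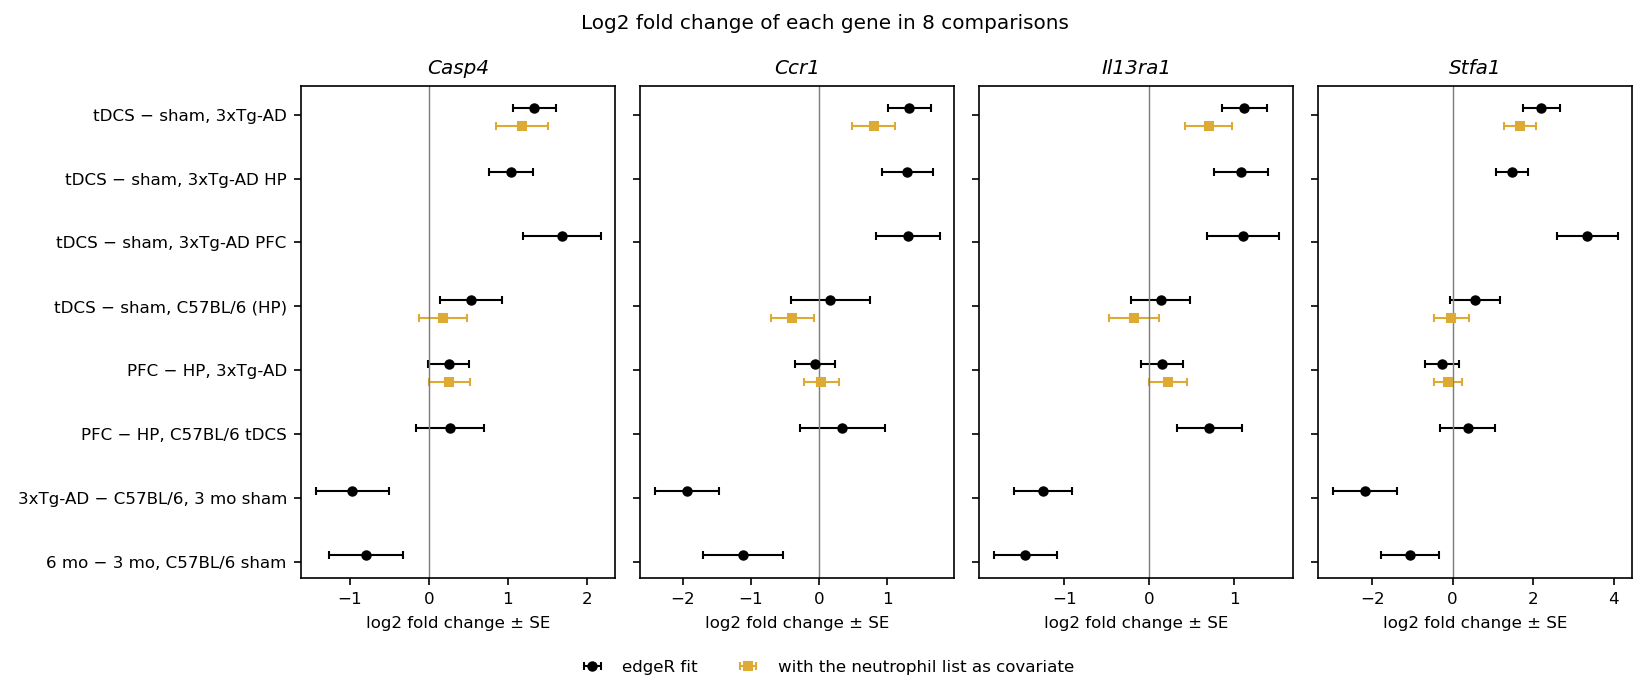
Log2 fold change with its SE (horizontal axes) of each gene in 8 comparisons (vertical axis), from the edgeR fit (black) and, for 3 comparisons, with the mean log2 CPM of the neutrophil list as a further covariate (yellow). In the edgeR fit (black) the 3xTg-AD tDCS values lie between 1.04 and 3.35, those of C57BL/6 mice between 0.14 and 0.55, and those of strain at 3 mo and of age below 0. With the covariate (yellow) the tDCS values lie between 0.70 and 1.68 in 3xTg-AD mice and between -0.39 and 0.18 in C57BL/6 mice.

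At 3 mo. none of the 4 genes passed the threshold in edgeR's test of 3xTg-AD against C57BL/6 sham mice, and each had a lower fitted value in 3xTg-AD mice. Ccr1 was at 4.47, 1.44 and 3.60 CPM in 3xTg-AD and at 8.13, 14.8 and 13.9 CPM in C57BL/6 mice, a log2 difference of -1.94 ± 0.48 (adjusted p = 0.153). Il13ra1 was at 3.93, 4.52 and 5.26 CPM against 8.67, 11.5 and 12.7 CPM, a difference of -1.25 ± 0.34 (adjusted p = 0.194). Stfa1 was at 0.123, 0.958 and 1.05 CPM against 2.06, 4.93 and 2.71 CPM, a difference of -2.18 ± 0.81 (adjusted p = 0.322). For these 3 genes the strains did not overlap, as was so in this direction for 8.45% of all genes. Casp4, at 1.97, 1.92 and 3.71 CPM against 5.58, 3.56 and 5.87 CPM, differed by -0.97 ± 0.46 (adjusted p = 0.431), and 1 mouse overlapped. edgeR called 58 of 15544 genes here (0.373%), and DESeq2 called 488 (3.74%), among them Ccr1 (adjusted p = 0.013) and Il13ra1 (adjusted p = 0.034).

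From 3 to 6 mo. in C57BL/6 sham mice, none of the 4 genes passed the threshold in edgeR's test, and each had a lower fitted value at 6 mo. The log2 differences were -0.80 ± 0.47 for Casp4, -1.12 ± 0.59 for Ccr1, -1.46 ± 0.37 for Il13ra1 and -1.05 ± 0.72 for Stfa1, with adjusted p of 0.57, 0.506, 0.229 and 0.642. For Il13ra1 every 6 mo. mouse was below every 3 mo. mouse, as were 1.74% of all genes, and DESeq2 called it (adjusted p = 0.0254). edgeR called 0 of 15595 genes (0%), with 1754 at an unadjusted p under 0.05, and DESeq2 called 192 (1.32%).

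Over the 9 groups, the mean CPM of Casp4 was lowest in 3 mo. 3xTg-AD mice at 2.53 ± 1.02 (SD, n = 3). It was 2.64 ± 0.754 in 3xTg-AD PFC sham, 2.87 ± 1.86 in 6 mo. C57BL/6 sham and 2.96 ± 1.11 in 3xTg-AD HP sham mice. Above these lay C57BL/6 HP tDCS at 4.14 ± 0.769, 3 mo. C57BL/6 sham at 5.003 ± 1.26, C57BL/6 PFC tDCS at 5.20 ± 0.895, 3xTg-AD HP tDCS at 6.16 ± 1.70 and PFC tDCS at 8.65 ± 5.90. Neighbours in this order were within an SD of each other, except for the step from 2.96 to 4.14 CPM. Ccr1 had its lowest mean in 3 mo. 3xTg-AD mice at 3.17 ± 1.56 CPM and its highest in 3xTg-AD HP tDCS mice at 17.0 ± 8.81, next to 16.3 ± 10.01 in PFC tDCS and 12.3 ± 3.63 in 3 mo. C57BL/6 mice. The other 5 groups were between 5.65 ± 4.55 and 8.39 ± 4.27 CPM, and no neighbours differed by more than the larger of their SDs.

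Il13ra1 was lowest in 6 mo. C57BL/6 sham mice at 3.97 ± 1.92 CPM and highest in 3xTg-AD PFC tDCS mice at 11.8 ± 6.36, within an SD of the 3 mo. C57BL/6 mice at 10.96 ± 2.08 and the 3xTg-AD HP tDCS mice at 10.7 ± 4.96. The other 5 groups ran from 4.34 ± 0.502 to 7.39 ± 2.18 CPM, and again neighbours lay within an SD. Stfa1 was lowest in 3xTg-AD PFC sham mice at 0.679 ± 0.744 CPM and 3 mo. 3xTg-AD mice at 0.711 ± 0.511, and highest in 3xTg-AD PFC tDCS mice at 7.20 ± 4.92 and HP tDCS mice at 5.55 ± 1.601. The step below the latter, to 3.23 ± 1.503 CPM in 3 mo. C57BL/6 mice, was larger than either SD, and the other 4 groups ran from 1.54 ± 1.34 to 3.09 ± 1.11. At 6 mo., 3xTg-AD HP sham mice had 1.03, 1.21, 1.25 and 1.30 times the mean CPM of C57BL/6 HP sham mice for Casp4, Ccr1, Il13ra1 and Stfa1, against 4.68 times for S100a8 and 4.07 times for S100a9. Ratios of medians were 1.15, 1.58, 1.39 and 1.22 for the 4 genes, 2.83 for S100a8 and 3.14 for S100a9. For S100a8 and for S100a9, 2 of 5 3xTg-AD HP sham mice lay above every C57BL/6 HP sham mouse.

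The values of neutrophil genes in these comparisons are given beside those of the 4 genes, and edgeR called few of them. With tDCS in 3xTg-AD mice, S100a8 was higher by 1.25 ± 0.41 and S100a9 by 1.23 ± 0.40 on the log2 scale (adjusted p = 0.414 and 0.407 in edgeR's test). All 16 measured genes of the neutrophil list, which holds S100a8 and S100a9, were higher, 12 of them with an unadjusted p under 0.05 and none called by edgeR, with a median of 1.139 against 0.02 over all genes. DESeq2 called 1 of them, Retnlg, a resistin-like gene of neutrophils (log2 fold change 1.38, adjusted p = 0.0453). The summed CPM of the list was 2236 to 13950 in HP sham, 4058 to 35620 in HP tDCS, 2027 to 4076 in PFC sham and 3196 to 15180 in PFC tDCS mice. Camp and Ngp were at 0 in 2 mice each, and the other 14 genes were detected in all mice. In C57BL/6 mice 15 of the 16 were higher with tDCS, with a median of 0.35 and none called by edgeR or DESeq2. With age 0 of 16 were higher, with a median of -1.11, and edgeR called 0, while DESeq2 called Lcn2, Wfdc21, Ly6g and Retnlg as lower. At 3 mo. 5 of 16 were higher in 3xTg-AD mice, with a median of -0.82, and Camp, a granule protein gene, was called as higher by edgeR (4.58 ± 0.50, adjusted p = 0.00507). DESeq2 called Camp and Ngp as higher and Retnlg as lower there. Also at 3 mo., 3 of 5 eosinophil genes were higher in 3xTg-AD mice, with a median of 3.72. Of the platelet genes 0 of 6 were higher, with a median of -1.68. In this comparison edgeR called 0 of 5 and 0 of 6 of them, and DESeq2 called 2 and 5.

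With the mean log2 CPM of the neutrophil list as a covariate, the 3xTg-AD tDCS fold changes were 1.18 ± 0.33 for Casp4, 0.80 ± 0.31 for Ccr1, 0.70 ± 0.28 for Il13ra1 and 1.68 ± 0.40 for Stfa1, each lower than without it. In C57BL/6 mice the same covariate gave 0.18, -0.39, -0.18 and -0.03, so that the direction of Ccr1, Il13ra1 and Stfa1 turned. Haemoglobin genes took 16.9% to 30.8% of reads in HP sham and 17.5% to 44.6% in HP tDCS 3xTg-AD mice, and with that share as a covariate the tDCS fold changes were 1.44, 1.28, 1.07 and 2.28. The part of other cell and library differences in the result was not tested.

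Within groups, the 4 genes followed S100a8 and S100a9 to different degrees over the 42 mice. After the mean of each of the 9 groups was subtracted, Pearson's r with S100a9 over 42 mice was 0.456 for Casp4, 0.737 for Ccr1, 0.651 for Il13ra1 and 0.702 for Stfa1, with Spearman's rho of 0.393, 0.773, 0.661 and 0.756. With S100a8, r was 0.38, 0.621, 0.59 and 0.657 and rho 0.373, 0.681, 0.612 and 0.744. Both were lowest for Casp4. The 2 mice that lay farthest from the median of the neutrophil gene were also left out, chosen separately for S100a9 and S100a8. Without them, r with S100a9 was 0.387, 0.716, 0.636 and 0.687, and r with S100a8 0.326, 0.596, 0.57 and 0.67. All these values come from the same mice and share their library sizes, and the choice of the 4 genes named these relations.

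In the 26 3xTg-AD mice alone, r with S100a9 was 0.329, 0.638, 0.586 and 0.596 for Casp4, Ccr1, Il13ra1 and Stfa1 (rho 0.307, 0.689, 0.586 and 0.673), and r with S100a8 was 0.334, 0.607, 0.609 and 0.613 (rho 0.398, 0.701, 0.653 and 0.726). In the 16 C57BL/6 mice r with S100a9 was 0.702, 0.899, 0.803 and 0.891 (rho 0.609, 0.876, 0.759 and 0.888), and r with S100a8 was 0.488, 0.685, 0.539 and 0.762 (rho 0.453, 0.635, 0.476 and 0.788). For each gene in C57BL/6 mice the value with S100a8 was below that with S100a9. The 2 C57BL/6 mice farthest from the median of the neutrophil gene were also left out, and they were not the same 2 for S100a9 and S100a8. Without them, r with S100a9 was 0.477, 0.847, 0.697 and 0.912, and r with S100a8 was 0.746, 0.682, 0.49 and 0.781, so the value of Casp4 moved the most.

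**Figure D3:**
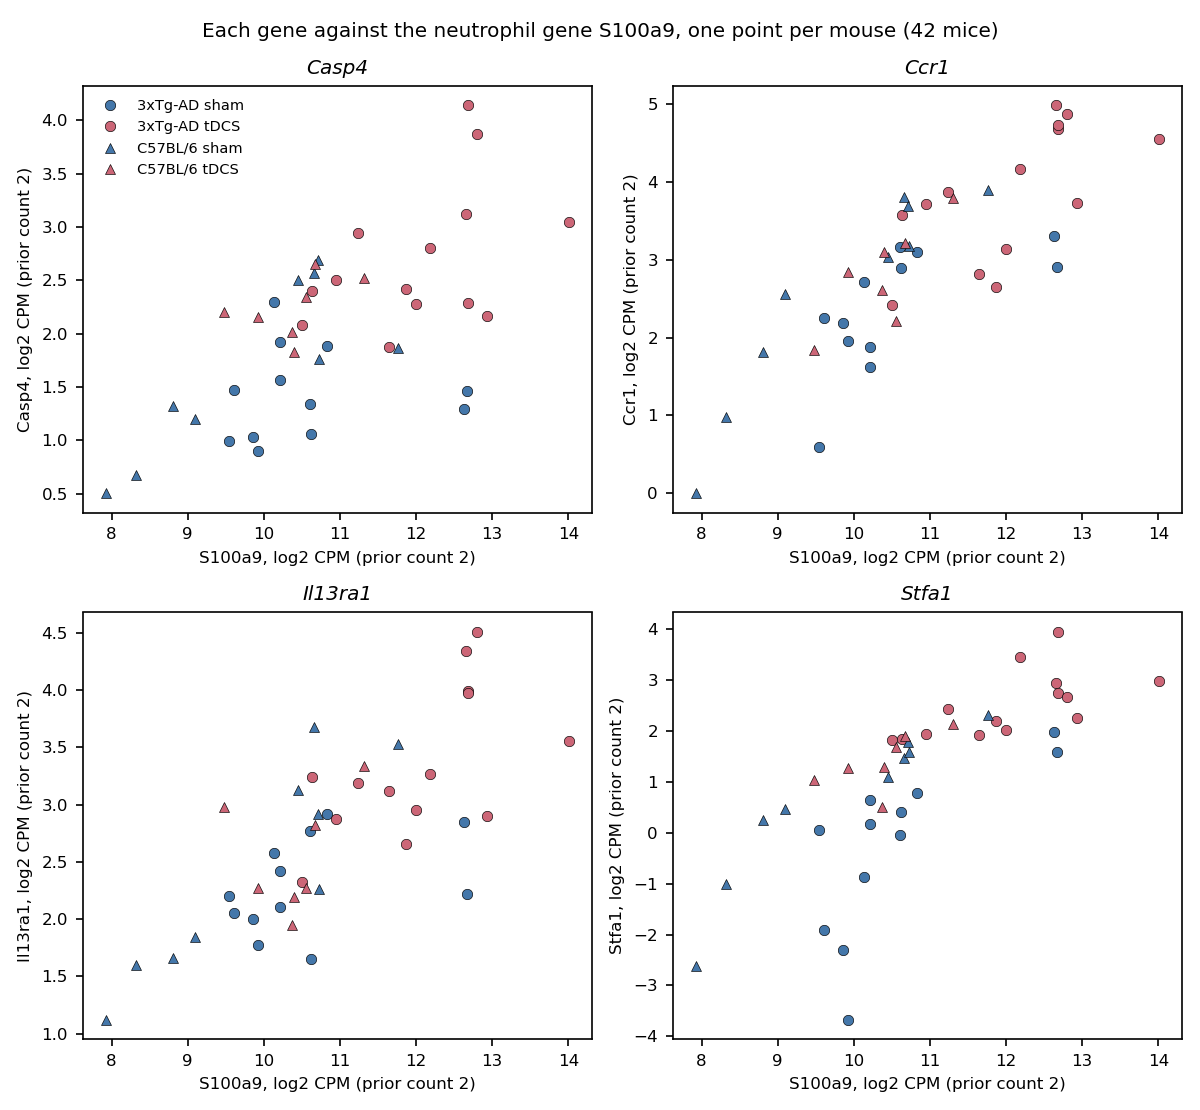
Log2 CPM of each gene (vertical axes) against log2 CPM of S100a9 (horizontal axes), with a point for each of 42 mice, shaped by strain and coloured by stimulation. Ccr1 and Stfa1 rise along S100a9 in both strains (r = 0.818 and 0.752 with no group mean subtracted), whereas 2 sham 3xTg-AD mice with high S100a9 sit low for Casp4.

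With no group mean subtracted, a description in which groups differ, r with S100a9 over 42 mice was 0.638, 0.818, 0.748 and 0.752 for Casp4, Ccr1, Il13ra1 and Stfa1. The 4 genes also followed each other, between 0.742 (Il13ra1 with Stfa1) and 0.85 (Ccr1 with Il13ra1). Among 5042 genes, of at least 5 CPM on average or named here, those most like Casp4 were Il13ra1, Fbxl5, Ccr1, Stfa1 and Lilra6 (r of 0.828, 0.796, 0.782, 0.767 and 0.762). Those most like Ccr1 were Gm5483, Il13ra1, Fbxl5, Cxcr2 and Lilra6 (0.854 to 0.834), and those most like Il13ra1 were Fbxl5, Ccr1, Gm5483, Wfdc17 and Socs3 (0.867 to 0.83). Stfa1 was most like Casp4, Ccr1, S100a9, Il13ra1 and Gm5483 (0.767 to 0.739). With group means subtracted, r among the 4 genes ran from 0.524 (Casp4 with Stfa1) to 0.772 (Ccr1 with Il13ra1). The 4 genes were all chosen for higher counts in the same mice, so their r with no group mean subtracted partly repeats that choice. All these values share the mice and their library sizes.

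By cell type list, the median r with group means subtracted was highest for the neutrophil list among the 10 marker lists for each gene, at 0.346 for Casp4, 0.597 for Ccr1, 0.556 for Il13ra1 and 0.521 for Stfa1. For the monocyte list it was -0.093, -0.082, -0.104 and 0.007, and for the B cell list -0.407, -0.268, -0.339 and -0.309. The neutrophil list holds S100a8 and S100a9, and the choice of the genes named their correlations. Its median was not taken without S100a8 and S100a9, so its place above the other lists partly repeats that choice. With tDCS in 3xTg-AD mice, 0 of 6 B cell genes were higher, with a median of -0.36. The medians of the other marker lists were 0.21 for monocytes (6 of 10 higher), 0.32 for eosinophils (5 of 5), 0.41 for basophils (5 of 6), 0.225 for T cells (6 of 7), -0.09 for NK cells (2 of 6), 0.16 for platelets (5 of 6), -0.31 for erythroid cells (2 of 7) and 0.10 for haemoglobin genes (6 of 9). Of these genes, 0 were called by edgeR or DESeq2, and at an unadjusted p under 0.05 edgeR held 2 monocyte, 1 eosinophil and 2 erythroid genes.

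Among the other inflammasome and pyroptosis genes, 15 of 21 were higher with tDCS in the 3xTg-AD strain. Their median was 0.47 on the log2 scale, against 0.02 over all genes. Of these genes 0 were called by edgeR or DESeq2, and 6 had an unadjusted p under 0.05. These were Mefv, which encodes pyrin (0.94 ± 0.34), the guanylate-binding protein genes Gbp2 (1.31 ± 0.53) and Gbp3 (0.79 ± 0.38), Il1b (0.68 ± 0.28), Casp1 (0.57 ± 0.26) and, lower, the NLRP3 partner Nek7 (-0.38 ± 0.18). Adjusted p were 0.479 to 0.626 in edgeR's test. Gsdmd, the substrate of caspase-11, was at 0.02 ± 0.41. In C57BL/6 mice 13 of 21 were higher, with a median of 0.20, and 3 had an unadjusted p under 0.05, of which Pycard, the inflammasome adaptor, had the smallest (0.75 ± 0.26, adjusted p = 0.992).

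Of 6 CCR1 ligand genes 3 were higher with tDCS in 3xTg-AD mice, and 0 were called by edgeR or DESeq2. Ccl6 (0.60 ± 0.23) and Ccl9 (0.54 ± 0.26) had an unadjusted p under 0.05 (adjusted p = 0.516 and 0.63 in edgeR's test), and Ccl5 was at -0.27 ± 0.24. Of 12 other chemokine receptor genes 6 were higher, with a median of 0.03, and Cxcr2, the neutrophil receptor for CXC chemokines, was the only one with an unadjusted p under 0.05 (0.89 ± 0.38, adjusted p = 0.559). Ccr2, the receptor of inflammatory monocytes, was at 0.38 ± 0.28.

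In the IL-4 and IL-13 receptor pathway, 9 of 15 other genes were higher, with a median of 0.05, and 0 were called by edgeR or DESeq2. Socs3, a feedback inhibitor of cytokine receptors (0.80 ± 0.29), Chil3, a chitinase-like gene (1.07 ± 0.40), and Il4ra, the partner of Il13ra1 (0.45 ± 0.19), had an unadjusted p under 0.05 (adjusted p = 0.489, 0.497 and 0.564 in edgeR's test). The kinases Jak1 and Jak2 were at -0.22 ± 0.16 and 0.16 ± 0.16, and Stat6 at 0.11 ± 0.25. In C57BL/6 mice Chil3 was at 1.09 ± 0.46 (adjusted p = 0.992) and Il4ra at 0.08 ± 0.29.

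**Figure D4:**
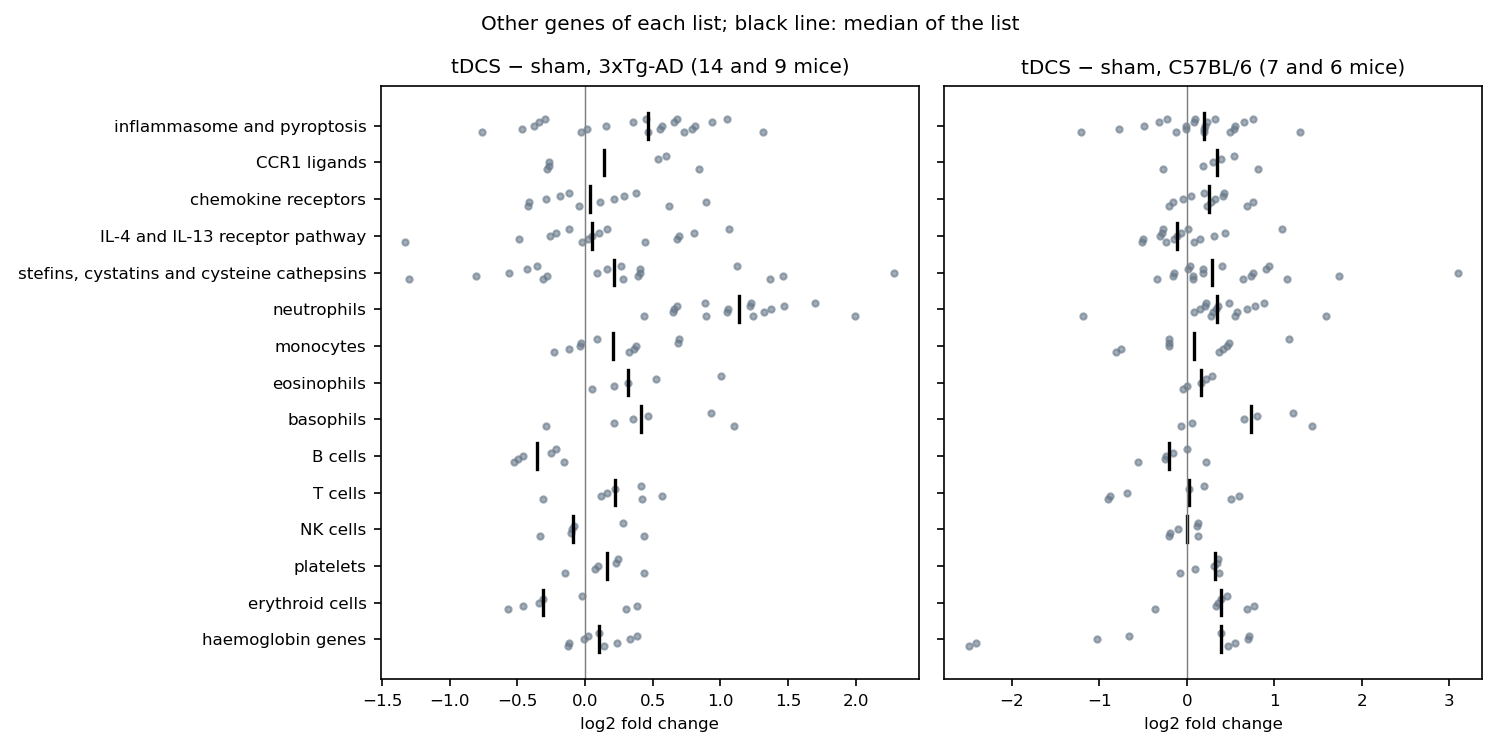
Log2 fold change of tDCS against sham (horizontal axes) of the other genes of 15 lists (vertical axis, a point for each gene, black line for the median) in 3xTg-AD mice (left) and C57BL/6 mice (right). The neutrophil list has the highest median in 3xTg-AD mice, 1.139, and stands at 0.35 in C57BL/6 mice.

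Stfa1 lies among paralogs on chromosome 16, and reads of a 3′ library may be shared between them. Of the 251 stretches of 50 bases in the last 300 bases of the Stfa1 transcript, 128 (51%) occur without a mismatch in BC100530 or BC117090, so the split of reads between these genes is uncertain. None of those of Casp4, Ccr1 and Il13ra1 occurs in another gene. Of the paralogs named below, Stfa2 shares 25.1% of such stretches with Gm4758 or Stfa2l1, and Stfa2l1 shares 24.3% with Stfa2. The split of reads between Stfa2 and Stfa2l1 is therefore uncertain too. BC100530 was at 0.124 to 283 CPM among the 6 mo. mice, and its log2 fold change with tDCS in 3xTg-AD mice was -0.35 ± 0.82, and that of BC117090 -0.81 ± 1.09.

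Of the 18 other stefin, cystatin and cathepsin genes 11 were higher with tDCS in 3xTg-AD mice, with a median of 0.21, and 0 were called by edgeR. Stfa2l1 (1.37 ± 0.35, adjusted p = 0.222) and Gm5483 (1.47 ± 0.38, adjusted p = 0.222), both stefin genes of the cluster, were called by DESeq2 (adjusted p of 0.0444 for each), and Stfa2 was at 2.29 ± 0.92 (adjusted p = 0.545 in edgeR's test). In PFC mice alone DESeq2 called Stfa2 (adjusted p = 1.29e-05). Stfa2 was listed at 0 in all 4 PFC sham mice and at 0.416 to 7.84 CPM in the 6 PFC tDCS mice. Stfa3 was at -0.43 ± 0.81, and the cathepsin genes Ctsb, Ctss and Ctsc, targets of such inhibitors, were at -0.28 ± 0.19, 0.28 ± 0.22 and 0.39 ± 0.27. At 3 mo., the log2 difference of 3xTg-AD from C57BL/6 mice was -2.996 ± 0.47 for Gm5483, which edgeR called (adjusted p = 0.0293).

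For Stfa1 and the 3 paralogs named with higher values, 30 bases around a stretch that they share are shown, as RefSeq on GRCm38.p6 gives them, with Gm5483 under its RefSeq name Cstdc4. The stretch was not looked for in the other paralogs, Stfa3 among them, and its relation to the tDCS values was not tested. Capitals mark TTTAAA, a motif chosen after these sequences were seen, which lies 29 to 33 bases before the RefSeq start. For Stfa1 and Stfa2 the annotated gene starts further upstream, so the bases shown lie inside it.
Stfa1, chr16:36277106-36277135, forward strand: ctttcggataccTTTAAAaccctgagtctc
Stfa2l1, chr16:36156766-36156795, forward strand: tttacagaaaccTTTAAAaccctgagtctc
Cstdc4, chr16:36184171-36184200, forward strand: tttacagataccTTTAAAaccctgactctt
Stfa2, chr16:36408375-36408404, reverse strand: cttacagaaaccTTTAAAaccctgagtctc

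In all 32851 RefSeq promoters, TTTAAA occurs within 80 bases before the start in 3.55%. Over 250 bases, the promoter of Stfa1 was identical in 80.4% of aligned positions to that of Stfa2l1, 72% to Cstdc4, 80.6% to Stfa2 and 83.1% to Stfa3. Stfa3, the closest of these, had a fitted value of -0.43 ± 0.81 with tDCS in 3xTg-AD mice, but its group medians were higher with tDCS at both sites. They were 1.65 CPM in HP sham and 4.39 in HP tDCS mice, and 0.0372 in PFC sham and 1.2 in PFC tDCS mice. The highest HP sham mouse was at 45.8 CPM. In C57BL/6 mice Stfa3 had 3.09 ± 0.96 with tDCS (adjusted p = 0.992 in edgeR's test).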

How the data were processed

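Whole blood RNA of 42 mice was measured by 3′ tag sequencing (QuantSeq on an Ion Proton) after globin depletion. The authors deposited whole-number read counts per gene, not normalized and already filtered on low counts, and the submitters' processing notes name cutadapt 1.14, STAR 2.6 and mm10. The strand setting of the counting is not given in the sources used here. Of the 15613 identifiers, 15607 matched a symbol. Totals were 13450000 to 37750000 reads per mouse, and SEs and intervals cover the spread between mice.

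Groups came from the labels. Library sizes were scaled by TMM, and log2 CPM used a prior count of 2. Every gene that had 1 read or more over the fitted mice was tested with edgeR 4.0.16 in R 4.3.3 (quasi-likelihood test, Benjamini-Hochberg adjusted p under 0.05), with site as a covariate where both sites were present. The SE of an edgeR fold change is its absolute value divided by the square root of the F statistic of that test. Intervals at 95% are the log2 fold change plus or minus the t quantile of the residual degrees of freedom times the SE. The p-values use edgeR's moderated degrees of freedom, so an interval and a p-value of the same comparison can differ. DESeq2 1.42.0, limma 3.58.1 (voom), RLE scaling, a prior count of 0.5, library sizes without haemoglobin reads, haemoglobin or neutrophil covariates and leaving out each mouse were alternatives. Correlations of log2 CPM were taken after subtracting group means and are given without p-values, since the choice of the genes named them. The fit and the correlation were tested on simulated data.

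The 4 genes, the gene lists and the tests were chosen with earlier results of these data known. Named genes are the 4 genes, S100a8 and S100a9, the 5 genes most like each of the 4 by Pearson's r, and from each list the called genes (at most 6 by smallest p) and those a sentence turns on. In the stefin list, older symbols in the counts (Gm5483, BC100530, BC117090, 2010005H15Rik, Gm5416) were matched to current names. RNA quality values and the study's supplementary tables were not used here.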

Additional observations from a re-analysis of the deposited data

How the results depend on the processing

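Each sample came from a different mouse that belonged to a single group, so no paired analysis applied. In 3xTg-AD mice, the tDCS fold changes of Casp4, Ccr1, Il13ra1 and Stfa1 kept their sign under each alternative run. Those runs use the mice that chose the genes, so the kept sign is a description only. With DESeq2, called genes were 37 for tDCS in 3xTg-AD mice, 45 in HP and 8 in PFC mice alone, 1 for the interaction of site and stimulation, 646 for site in C57BL/6 tDCS mice, 488 for strain at 3 mo. and 192 for age. DESeq2 gave -1.968 for Ccr1 and -1.271 for Il13ra1 for strain and -1.484 for Il13ra1 for age, all past its threshold. With limma voom, 5 genes were called for tDCS in 3xTg-AD mice, 203 for site in C57BL/6 mice, 291 for strain and 1 for age. With haemoglobin share as a covariate, 473 genes were called for site in 3xTg-AD mice. Values near 0 changed sign. The interaction for Ccr1 was 0.022 with RLE scaling and 0.024 with DESeq2, and for Il13ra1 -0.281 with voom. The site difference in 3xTg-AD mice was -0.005 for Casp4 with voom and 0.036 for Ccr1 with the neutrophil covariate, and that covariate turned tDCS in C57BL/6 mice to -0.39 for Ccr1, -0.175 for Il13ra1 and -0.034 for Stfa1. Leaving out 1 mouse at a time gave, for the interaction, -0.279 to 0.184 for Ccr1 and -0.311 to 0.209 for Il13ra1, and for site in 3xTg-AD mice -0.221 to 0.052 for Ccr1 and -0.039 to 0.267 for Il13ra1. For Ccr1 it gave -0.064 to 0.588 for tDCS and -0.004 to 0.598 for site in C57BL/6 mice. The counts of called genes then ranged from 0 to 1 for tDCS in PFC mice, 185 to 479 for site in C57BL/6 mice, 18 to 657 for strain at 3 mo. and 0 to 280 for age. The count for tDCS in PFC mice was 1 without tDCS replicate 3 or 6. For site in C57BL/6 mice it was 185 without HP tDCS replicate 3 and 228, 233 and 236 without PFC tDCS replicates 1, 3 and 4. For strain it was 657 without C57BL/6 replicate 3, 29 without its replicate 2, and 18, 20 and 20 without 3xTg-AD replicates 1 to 3. For age it was 280 without 3 mo. replicate 3, 2 without 3 mo. replicate 2 and 12 without 6 mo. replicate 3. Without the 2 mice farthest from the median neutrophil gene level, r was 0.326 for Casp4 with S100a8 and 0.387 with S100a9 over all mice, and in C57BL/6 mice 0.477 for Casp4 with S100a9, 0.682 for Ccr1 with S100a8, 0.697 for Il13ra1 with S100a9 and 0.746 for Casp4 with S100a8. Without C57BL/6 HP sham replicate 2, the difference of the strains' HP fold changes was 0.084 for Casp4, 0.689 for Ccr1, 0.649 for Il13ra1 and 0.492 for Stfa1. The cause of these changes was not tested.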
